A study of Homo sapiens with 12 samples.

Results

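The genes described here are 10 secreted ligands of the TGF-β superfamily and proteins that bind or oppose them. They are TGFB1, TGFB2 and TGFB3, INHBA and INHBB, GDF15, LEFTY2, FST, FSTL3 and LRRC32. They were picked by name as members of that pathway, with earlier results of these data known, and they are 10 of the 28395 genes counted. The low-count filter kept 9 of these 10, and INHBB did not pass it. RNA sequencing was done on 12 libraries of BEAS-2B cells, a human bronchial epithelial line immortalised with viral genes, in 4 groups of 3. One group received TGF-β1 (40 pM for 24 h) and then the synthetic glucocorticoid dexamethasone (30 nM for 4 h), called both agents below. The other groups received TGF-β1 alone at that dose and time, dexamethasone alone at that dose and time, or neither, which is the control. Cells of all 4 groups had 24 h without serum first. BEAS-2B is 1 established line, so the 3 libraries of a group are cultures of the same cells and not donors. The comparisons ask how a TGF-β signal and a glucocorticoid, alone and combined, change the transcripts for the ligands of that pathway and for their inhibitors.

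TGF-β superfamily ligands are dimers that bring type I and type II receptor kinases together on the cell surface, and these phosphorylate SMAD transcription factors. The TGF-β isoforms are secreted in a latent complex and are held inactive until integrins or proteases release them. In airway epithelium they are known for growth arrest, matrix production and loss of epithelial features. Activins, made from the subunits that INHBA and INHBB encode, use a related receptor set, and follistatin proteins trap activins outside the cell. Transcript levels do not report how much ligand was secreted or active, and the TGF-β1 added to the medium was protein, which RNA sequencing does not count.

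Total counts lay between 5861591 and 7008203 in replicates 1 and 2 of the groups and between 17968961 and 19727235 in replicate 3, so low genes are best measured there. Libraries with the same replicate number deviated together, so the number was also fitted as a block, and that value is given where it changed a call of these 10 genes. All 11 listed epithelial markers had a mean of at least 1 CPM, a read count relative to the normalised total of its library, in every group. Of 8 listed fibroblast markers, PDGFRB, THY1, FAP and PDPN reached that level. The 8 together summed to 997 to 1170 CPM with both agents, 840 to 887 CPM with TGF-β1, 332 to 515 CPM with dexamethasone and 305 to 456 CPM in control. No fibroblast marker was at 0 in all 12 libraries, and the part of these genes in the results below was not tested. Leukocyte markers summed to 12.3 to 21.3 CPM, and the growth protocol names A549 cells where all other labels name BEAS-2B. Of 6 genes listed as abundant in A549 cells, AKR1B10, AKR1C2 and ALDH3A1 had a mean of at least 1 CPM in some group. The 6 summed to 2.98 to 11.3 CPM with both agents, 2.18 to 6.64 CPM with TGF-β1, 15.1 to 36.2 CPM with dexamethasone and 12.9 to 39.6 CPM in control.

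In TGF-β1 against control, TGFB1, TGFB2, INHBA, LEFTY2, FSTL3 and LRRC32 rose and TGFB3 fell, where 16.2% of all 13469 tested genes were higher and 16.6% lower (32.8% in either direction). INHBA, LEFTY2 and LRRC32 passed the low-count filter only through the libraries with TGF-β1, where they are high, so their calls are not counted as support. Of the 6 genes that pass it without those libraries, 3 rose and 1 fell. Scaling by library size alone gave 1251 of all genes higher and 4332 lower, against 2186 and 2230 with TMM scaling, and left these calls as they were. Dexamethasone against control gave 4 calls. FSTL3 rose and TGFB2, TGFB3 and FST fell, against a background of 10.4% of all genes (5.54% higher and 4.90% lower). With both agents against TGF-β1 alone, FSTL3 rose and TGFB2, TGFB3, FST and LRRC32 fell, against a background of 8.11% (5.09% higher and 3.01% lower). Here too the call of LRRC32 is not counted as support. Of the 6 genes that pass the filter without the libraries with TGF-β1, 1 rose and 3 fell. The 3 comparisons are not independent, since the first and the second share the control libraries and the first and the last share the TGF-β1 libraries. Calls are Benjamini-Hochberg adjusted p under 0.05 in edgeR's quasi-likelihood test on all 12 libraries. Sizes of change are given on the log2 scale, each with a standard error (SE). With the replicate block GDF15 was called as well in each of these comparisons, higher with TGF-β1 and lower with dexamethasone, where the background with the block was 50.0%, 22.2% and 17.5% in the same order.

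**Figure D1:**
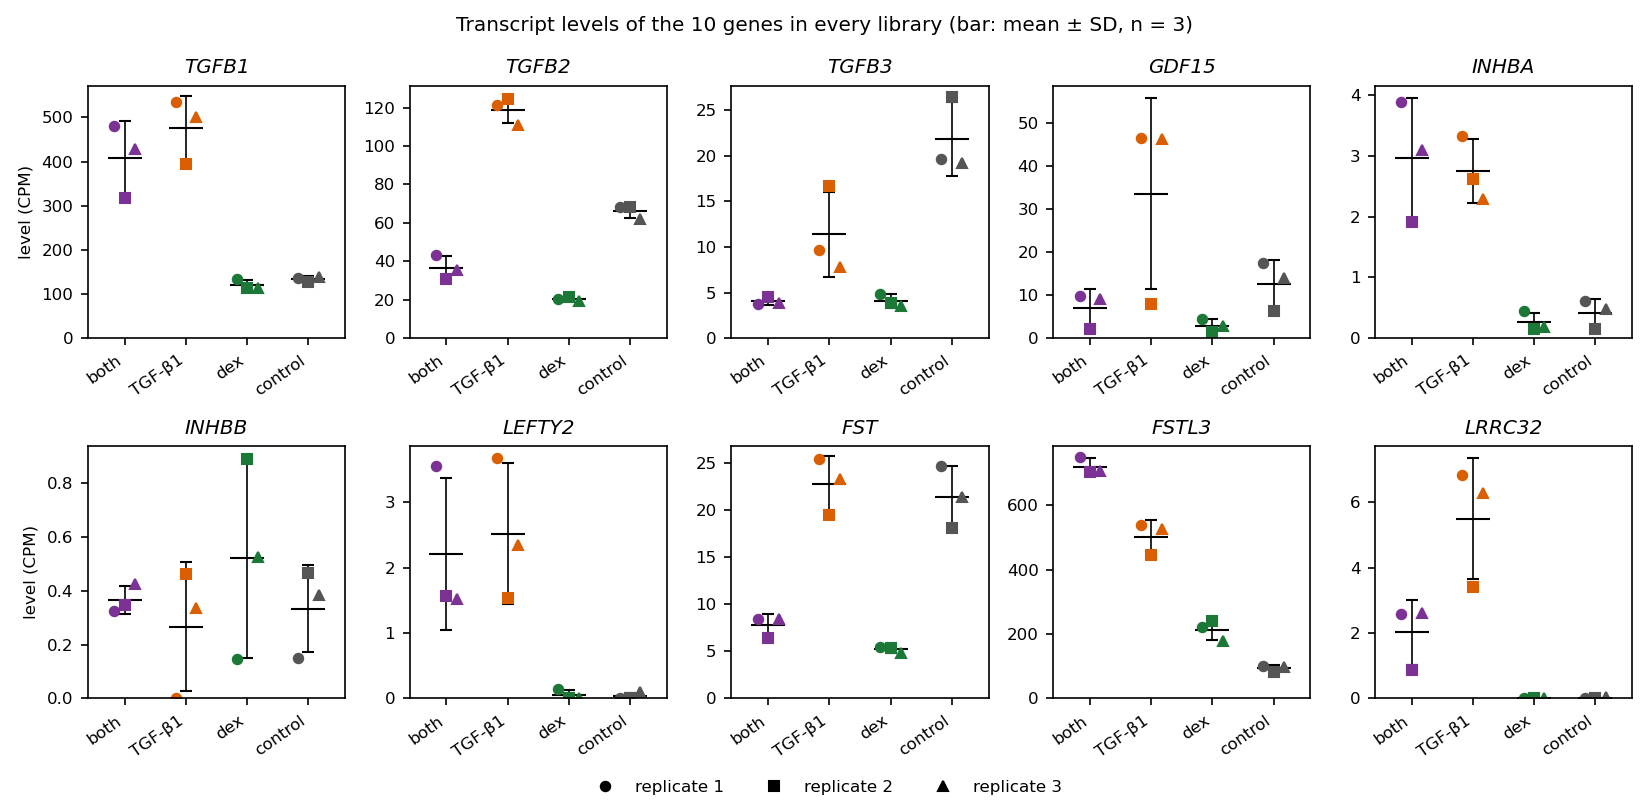
Level of each of the 10 genes in every library, in CPM, with 3 libraries per group and mean ± SD as bars. FSTL3 stood between 705 and 750 CPM with both agents and between 82.8 and 102 CPM in control, and LRRC32 had reads in all 6 libraries with TGF-β1.

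The 5 genes lowered or raised by dexamethasone, GDF15 counted only with the replicate block, are shown with the 250 bases before their RefSeq start site. FSTL3 rose and the other 4 fell, and the stretches set the letters upstream of each gene beside these values. Sequences are from RefSeq, build GRCh38.p14, written 5′ to 3′ on the gene's strand. Capitals mark matches to 5 motifs searched on both strands: the SMAD box CAGAC, the AP-1 element TGANTCA, the glucocorticoid response element, the C/EBP-ATF element TGATGCAA and the TATA box TATAAA. The TGFB2 stretch is chr1:218345086-218345335 on the plus strand, TGFB3 is chr14:75983012-75983261 on the minus strand, FST is chr5:53480379-53480628, GDF15 is chr19:18385908-18386157 and FSTL3 is chr19:676142-676391, the last 3 on the plus strand.
TGFB2: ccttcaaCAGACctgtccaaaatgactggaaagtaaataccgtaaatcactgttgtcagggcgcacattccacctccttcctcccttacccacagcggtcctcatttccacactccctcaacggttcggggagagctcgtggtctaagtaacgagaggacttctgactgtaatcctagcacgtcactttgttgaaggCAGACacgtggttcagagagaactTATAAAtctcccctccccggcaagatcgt
TGFB3: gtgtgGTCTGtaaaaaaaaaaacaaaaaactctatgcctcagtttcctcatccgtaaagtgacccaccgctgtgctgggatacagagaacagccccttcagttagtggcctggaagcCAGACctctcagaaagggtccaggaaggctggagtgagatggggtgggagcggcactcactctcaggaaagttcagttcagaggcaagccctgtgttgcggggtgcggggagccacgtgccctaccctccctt
FST: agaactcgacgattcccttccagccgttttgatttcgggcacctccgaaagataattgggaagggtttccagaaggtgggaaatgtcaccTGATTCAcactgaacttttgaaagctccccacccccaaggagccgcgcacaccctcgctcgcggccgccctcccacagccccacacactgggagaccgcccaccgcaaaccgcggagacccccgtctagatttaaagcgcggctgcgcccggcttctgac
GDF15: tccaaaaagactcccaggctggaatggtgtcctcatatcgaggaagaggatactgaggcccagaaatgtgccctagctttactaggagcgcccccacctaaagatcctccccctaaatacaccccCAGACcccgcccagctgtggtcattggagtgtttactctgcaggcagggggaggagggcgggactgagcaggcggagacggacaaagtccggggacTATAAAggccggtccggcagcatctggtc
FSTL3: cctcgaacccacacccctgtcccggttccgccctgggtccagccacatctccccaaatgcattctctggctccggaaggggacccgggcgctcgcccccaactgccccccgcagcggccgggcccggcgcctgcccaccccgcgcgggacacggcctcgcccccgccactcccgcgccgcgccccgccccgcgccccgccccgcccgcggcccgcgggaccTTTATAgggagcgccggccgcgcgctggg

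TGFB2 holds CAGAC from -243 to -239 and again from -53 to -49, and TATAAA from -29 to -24, counted from the start site. TGFB3 holds CAGAC from -133 to -129 and its reverse complement from -245 to -241, with no TATAAA in this window. FST holds TGATTCA from -160 to -154, which is the AP-1 letters. GDF15 holds CAGAC from -125 to -121 and TATAAA from -29 to -24, and FSTL3 holds TATAAA on the reverse strand at that same place. Promoters were given for 8 of the 10 genes. CAGAC was in 3 of these 8 and in 38.0% of 35116 RefSeq promoters of that length, TATAAA in 4 of 8 and in 10.7%, and TGANTCA in 1 of 8 and in 6.57%. The glucocorticoid response element was in 0 of the 8 and in 0.327% of all promoters, and TGATGCAA in 0 of the 8 and in 0.772%. A match is a description of these letters only, CAGAC and TATAAA are short, and the absence of a match says nothing of binding elsewhere. FSTL3 had 80.0% G or C in its stretch and 36 CpG, against 54.8% and 6 in that of TGFB3.

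TGFB1, the ligand that was also the added agent, rose with TGF-β1 and did not pass the test with dexamethasone. TGFB1 (Entrez gene 7040) lies on chromosome 19 from 41330323 to 41353922, minus strand (GRCh38.p14, as for all positions here). Its level was 481, 317 and 428 CPM with both agents, 534, 395 and 501 CPM with TGF-β1, 133, 115 and 113 CPM with dexamethasone, and 137, 126 and 138 CPM in control (replicates 1, 2 and 3 in that order, as in all such lists). All 6 libraries with TGF-β1 lay above all 6 without it, and the lowest of the 6 were both replicate 2. The log2 fold change was 1.83 with TGF-β1 against control (SE 0.15, adjusted p = 6.93e-07) and 1.77 with both agents against dexamethasone (SE 0.15, adjusted p = 1.09e-06). The dexamethasone change was -0.16 without TGF-β1 (SE 0.14, adjusted p = 0.673) and -0.22 with it (SE 0.14, adjusted p = 0.505). In bulk RNA, more cells that use a gene and more RNA per cell cannot be told apart. The exons of TGFB1 share 215 bases, 6.64% of their length, with HNRNPUL1 on the other strand, the library kit is non-directional by its name and the strand setting is not given in the sources used here, so reads there are taken as not told apart. The same holds for 163 bases (3.32%) of TGFB3 under TGFB3-AS1 and 87 bases (1.95%) of LRRC32 under AP001189.1. LEFTY2 shares 175 bases (7.32%) with AL117348.1 on the same strand. HNRNPUL1 itself showed a log2 change of 0.09 with TGF-β1 against control (SE 0.07, adjusted p = 0.366), which was not past the test.

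TGFB2 rose with TGF-β1 and fell with dexamethasone, by about the same amounts whether or not the other agent was present. TGFB2 (Entrez gene 7042, chromosome 1, 218345336 to 218444619, plus strand) encodes the isoform known for its part in epithelial-to-mesenchymal change in heart development. Levels were 43.2, 30.9 and 35.6 CPM with both agents, 121, 124 and 111 CPM with TGF-β1, 20.2, 21.4 and 19.5 CPM with dexamethasone, and 68.1, 68.4 and 61.9 CPM in control. No group overlapped another, and both agents together stood between dexamethasone and control. Dexamethasone lowered TGFB2 with a log2 fold change of -1.70 against control (SE 0.11, adjusted p = 1.78e-07), and it was -1.70 with both agents against TGF-β1 (SE 0.11, adjusted p = 1.6e-07). TGF-β1 raised it by 0.85 on the log2 scale against control (SE 0.10, adjusted p = 2.4e-05) and by 0.85 with both agents against dexamethasone (SE 0.11, adjusted p = 5.98e-05). With both agents TGFB2 was below control, at -0.85 on the log2 scale (SE 0.11, adjusted p = 2.81e-05), where 36.6% of all genes were called. The interaction, which is the dexamethasone change with TGF-β1 minus that without it, was 0.00 with SE 0.14. The RNA TGFB2-OT1 shares 1371 bases of TGFB2's exons on the same strand and had 0 reads in the table.

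TGFB3 was the isoform that fell with each agent. TGFB3 (Entrez gene 7043, chromosome 14, 75958097 to 75983011, minus strand) is known for palate fusion and lung development. It stood at 3.72, 4.52 and 3.83 CPM with both agents, 9.62, 16.7 and 7.84 CPM with TGF-β1, 4.87, 3.86 and 3.49 CPM with dexamethasone, and 19.7, 26.5 and 19.2 CPM in control. The control libraries were the highest, the TGF-β1 libraries came next, and the groups with dexamethasone overlapped each other. The log2 fold change was -0.97 with TGF-β1 (SE 0.24, adjusted p = 0.00588) and -2.45 with dexamethasone (SE 0.26, adjusted p = 1.48e-05), both against control. Both agents against TGF-β1 gave -1.47 (SE 0.28, adjusted p = 0.003), and both agents against dexamethasone gave 0.01 (SE 0.30, adjusted p = 0.989). The interaction was 0.98 (SE 0.38, adjusted p = 0.493), and with the replicate block it was 1.04 (SE 0.27, adjusted p = 0.0232). The smaller fall with dexamethasone in the presence of TGF-β1 was thus past the test only with the block, where 4.78% of all genes were called.

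**Figure D2:**
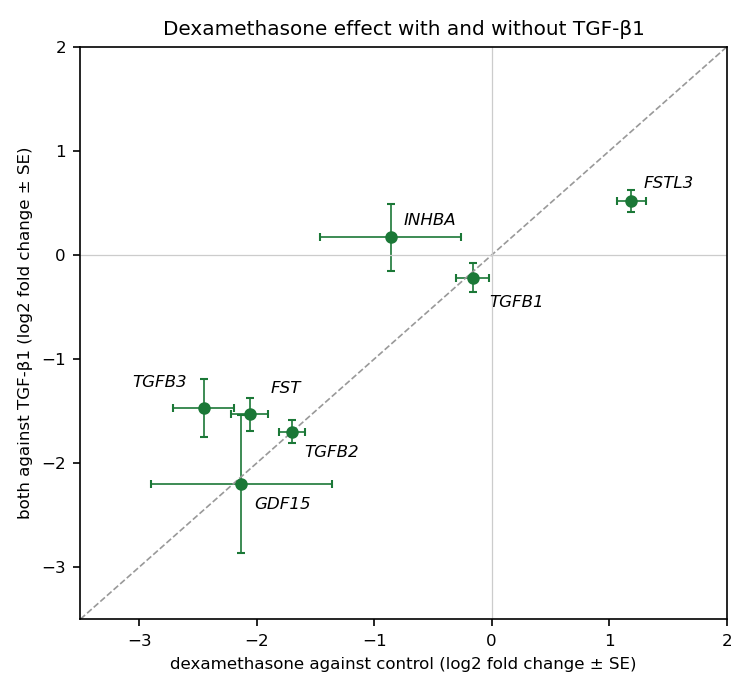
Log2 fold change with dexamethasone when TGF-β1 was present (both against TGF-β1, y axis) against that without it (dexamethasone against control, x axis), with SE as bars, for the 7 genes with more than 3 reads in every group that passed the filter. TGFB1, TGFB2 and GDF15 lie within 1 SE of the dashed line of equal change. TGFB3, FST and INHBA lie above it, INHBA with wide bars (SE 0.60 and 0.32), and FSTL3 lies below it.

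The summed level of the 3 TGF-β isoforms, per kilobase of exon, was 134 ± 26.8 CPM per kb with both agents, 173 ± 21.0 with TGF-β1, 41.9 ± 3.53 with dexamethasone and 58.6 ± 0.98 in control (SD, n = 3 each). TGFB1 made up 94.0 ± 0.569% of this sum with both agents, 85.1 ± 3.01% with TGF-β1, 88.6 ± 0.751% with dexamethasone and 70.5 ± 2.65% in control. TGFB2 made up 5.33 ± 0.385%, 13.5 ± 2.23%, 9.47 ± 0.885% and 21.9 ± 1.28% in that order of groups. TGFB3 had at most 2.27% in any library with an agent, against 7.58 ± 1.53% in control. The libraries with both agents thus held the smallest shares of TGFB2 and TGFB3 transcripts, and control the largest. These shares are a description with no test, since they follow from the levels above. They also depend on the length used. With the longest transcript in place of all exons, TGFB3 in control stood at 8.05 CPM per kb, against 4.44.

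**Figure D3:**
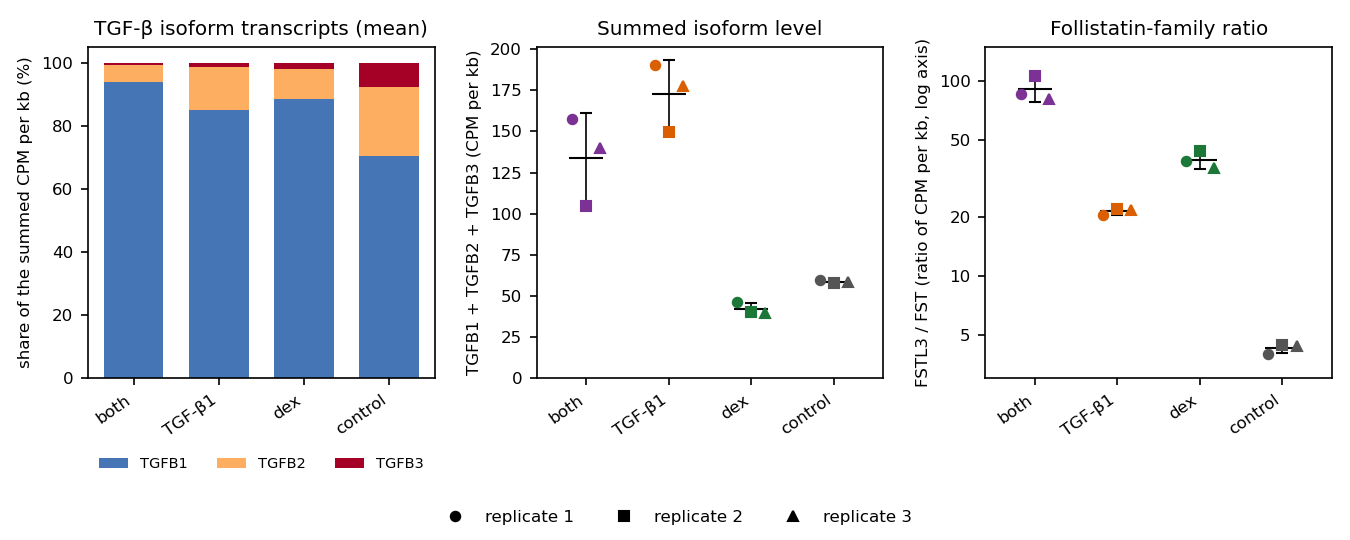
Left, mean share of TGFB1, TGFB2 and TGFB3 in their summed level per kilobase, in percent; middle, that summed level in CPM per kb; right, the FSTL3 to FST ratio per kilobase on a log axis, with libraries as points and mean ± SD as bars. The TGFB1 share was 94.0% with both agents and 70.5% in control, and the ratio 91.1 and 4.26.

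Of the activin subunits, INHBA rose with TGF-β1 and INHBB was too low to test. INHBA (Entrez gene 3624, chromosome 7, 41685114 to 41705406, minus strand) encodes the subunit of activin A. It had 24, 11 and 51 reads with both agents, 19, 17 and 41 reads with TGF-β1, 3, 1 and 4 reads with dexamethasone, and 4, 1 and 10 reads in control. In CPM the lowest library with TGF-β1, at 1.91, was above the highest without it, at 0.605. The log2 fold change was 2.57 with TGF-β1 against control (SE 0.41, adjusted p = 0.000275) and 3.6 with both agents against dexamethasone (SE 0.45, adjusted p = 3.67e-05). INHBA passed the low-count filter only through the libraries with TGF-β1, so these calls are not counted as support. The values with dexamethasone were -0.86 without TGF-β1 (SE 0.60, adjusted p = 0.52) and 0.17 with it (SE 0.32, adjusted p = 0.901), neither past the test. At 8 reads over the dexamethasone libraries and 15 over control, a change with dexamethasone alone was poorly measured, and the ratio of read rates was 0.524 (95% interval 0.192 to 1.32, counting error only).

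INHBB (Entrez gene 3625, chromosome 2, 120346136 to 120351803, plus strand) encodes the subunit of activin B. It had 2, 2 and 7 reads with both agents, 0, 3 and 6 reads with TGF-β1, 1, 6 and 11 reads with dexamethasone, and 1, 3 and 8 reads in control. Reads were few in every group, and no difference was detectable at this depth. The ratio of read rates was 0.844 for TGF-β1 against control (95% interval 0.314 to 2.18) and 1.47 for dexamethasone against control (0.671 to 3.35), with counting error only.

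GDF15, a stress-induced ligand known to act on the brainstem receptor GFRAL, had the same order of groups in each replicate at very different levels. GDF15 (Entrez gene 9518) lies on chromosome 19 from 18386158 to 18389176, plus strand. It stood at 9.87, 2.09 and 9.17 CPM with both agents, 46.5, 7.87 and 46.4 CPM with TGF-β1, 4.43, 1.48 and 2.82 CPM with dexamethasone, and 17.4, 6.35 and 13.9 CPM in control. Replicate 2 was the lowest library of every group, and within each replicate number the order was TGF-β1, control, both agents, dexamethasone. In replicate 2 TGF-β1 and control lay close, with 51 and 41 reads. In edgeR's fit of all libraries without the block, no comparison was past the test. The log2 fold change was 1.42 with TGF-β1 against control (SE 0.62, adjusted p = 0.113, with the block 5.48e-06) and -2.13 with dexamethasone against control (SE 0.77, adjusted p = 0.132, with the block 6.49e-06). With both agents it was -2.20 against TGF-β1 (SE 0.66, adjusted p = 0.0828, with the block 4.5e-07). The other blocked values were 0.000474 for both agents against dexamethasone, at 1.35 without the block (SE 0.81, adjusted p = 0.242), and 0.00503 for both agents against control, at -0.78 (SE 0.69, adjusted p = 0.417). With replicate 2 left out of all 4 groups, chosen after seeing the data, the changes were 1.60 (adjusted p = 2.32e-05) with TGF-β1, -2.20 (3.03e-05) with dexamethasone and -2.30 (6.83e-06) with both agents against TGF-β1. Leaving out TGF-β1 replicate 2 alone gave adjusted p = 0.00922, 0.0224 and 0.0056 for these 3 comparisons. It was the only 1 of the 12 fits leaving out 1 library that called them. Over the 12 fits adjusted p reached 0.316 with TGF-β1, 0.336 with dexamethasone and 0.272 with both agents against TGF-β1. Without the block, DESeq2 also called both agents against TGF-β1 (adjusted p = 0.0433), and a fit of the 2 groups alone called dexamethasone against control (0.0138).

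**Figure D4:**
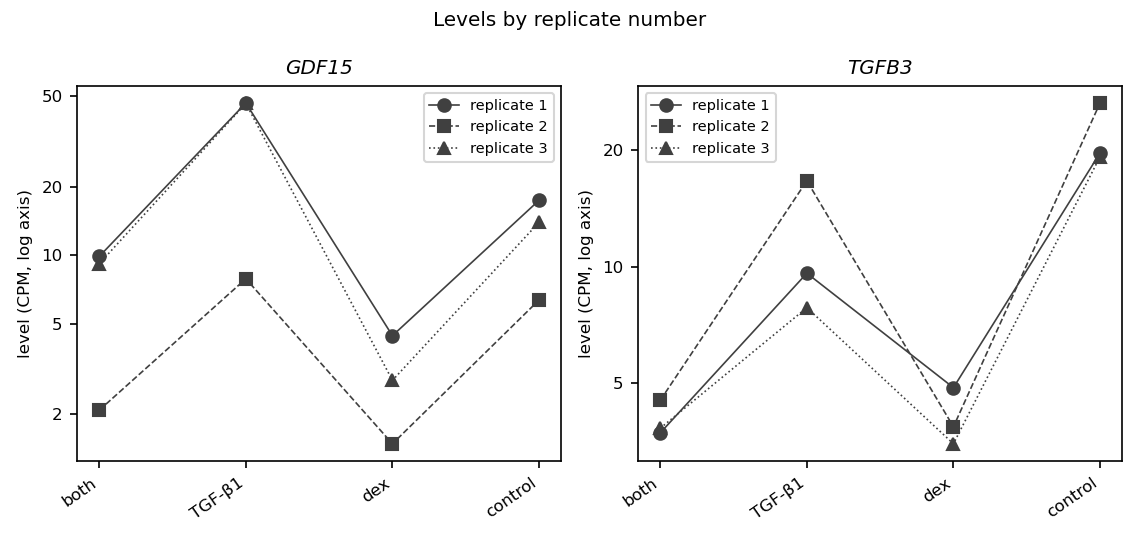
GDF15 and TGFB3 in CPM on a log axis in each group, with 1 line per replicate number to show libraries that share a number and not a trend. The GDF15 lines keep the same order of groups with replicate 2 lowest throughout, where TGF-β1 and control differ least (7.87 and 6.35 CPM). For TGFB3 replicate 2 is highest in every group but dexamethasone.

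FSTL3 rose with each agent and was highest with both. FSTL3 (Entrez gene 10272, chromosome 19, 676392 to 683385, plus strand) encodes a secreted glycoprotein of the follistatin family that binds activins and myostatin. Levels were 750, 705 and 707 CPM with both agents, 538, 445 and 526 CPM with TGF-β1, 221, 242 and 178 CPM with dexamethasone, and 102, 82.8 and 96.3 CPM in control. The 4 groups did not overlap and kept this order in every replicate number. Against control the log2 fold change was 2.94 with both agents (SE 0.12, adjusted p = 1.49e-09), 2.42 with TGF-β1 (SE 0.12, adjusted p = 8.73e-09) and 1.19 with dexamethasone (SE 0.12, adjusted p = 7.44e-06). With both agents against TGF-β1 the log2 fold change was 0.52 (SE 0.11, adjusted p = 0.00885). The interaction was -0.67 (SE 0.16, unadjusted p = 0.00106, adjusted p = 0.0861; 0.072 with the block). It was called by the DESeq2 Wald test (-0.65, adjusted p = 0.0264) and without the low-count filter (adjusted p = 0.0239). It was also called without TGF-β1 replicate 2 (adjusted p = 0.0497) and without dexamethasone replicate 3 (adjusted p = 0.027). Over all 12 fits that each left out 1 library, its adjusted p ran from 0.027 to 0.238.

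FST, which encodes follistatin, the prototype activin-binding protein, moved in the opposite direction with dexamethasone. FST (Entrez gene 10468) lies on chromosome 5 from 53480629 to 53487134, plus strand. It stood at 8.41, 6.43 and 8.44 CPM with both agents, 25.4, 19.4 and 23.3 CPM with TGF-β1, 5.46, 5.34 and 4.82 CPM with dexamethasone, and 24.7, 18.1 and 21.4 CPM in control. The TGF-β1 and control libraries overlapped, and all 6 libraries with dexamethasone lay below all 6 without it. Dexamethasone lowered FST with a log2 fold change of -2.06 against control (SE 0.16, adjusted p = 9.57e-07) and -1.53 with both agents against TGF-β1 (SE 0.16, adjusted p = 1.53e-05). TGF-β1 alone gave 0.09 (SE 0.14, adjusted p = 0.69). Both agents against dexamethasone gave 0.61 (SE 0.18, adjusted p = 0.0161). That call was lost without dexamethasone replicate 3 (0.54, adjusted p = 0.0839), without replicate 3 of both agents (0.53, adjusted p = 0.0818) and with scaling by library size alone (0.41, adjusted p = 0.0622).

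The FSTL3 to FST ratio per kilobase was 91.1 ± 13.1 with both agents, 21.5 ± 0.872 with TGF-β1, 39.6 ± 4.06 with dexamethasone and 4.26 ± 0.234 in control (SD, n = 3 each). It was highest with both agents and lowest in control in every replicate number. As with the isoform shares, it is given as a description.

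LEFTY2 and LRRC32 were at or near 0 without TGF-β1. LEFTY2 (Entrez gene 7044, chromosome 1, 225936603 to 225941220, minus strand) encodes an atypical member of the superfamily that blocks NODAL signalling. It had 22, 9 and 25 reads with both agents, 21, 10 and 42 reads with TGF-β1, 1, 0 and 0 reads with dexamethasone, and 0, 0 and 2 reads in control. All 6 libraries with TGF-β1 had 9 or more reads and no library without it had more than 2. The ratio of read rates was 41.1 for TGF-β1 against control (95% interval 11 to 345, counting error only; edgeR adjusted p = 0.000127). It was 67.9 for both agents against dexamethasone (11.7 to 2730), also past the test. LEFTY2 passed the low-count filter only through the libraries with TGF-β1, so these calls are not counted as support. Both agents against TGF-β1 gave 0.812 (0.563 to 1.17), which was not past the test.

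LEFTY1, the neighbouring paralog whose sequence is nearly identical, can share reads with LEFTY2, so the split between them is uncertain. It had 28, 8 and 20 reads with both agents, 5, 5 and 7 reads with TGF-β1, 0, 0 and 2 reads with dexamethasone, and 0, 0 and 2 reads in control. Its ratio for both agents against TGF-β1 was 3.49 (2.00 to 6.40). That interval covers counting error only and not the spread between libraries, and replicate 1 held 28 of the 56 reads with both agents. With the reads of the pair summed into 1 gene, chosen after seeing the data, that comparison gave 0.49 on the log2 scale (adjusted p = 0.699).

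LRRC32 (Entrez gene 2615, chromosome 11, 76657524 to 76670747, minus strand) encodes GARP, a membrane protein known for docking latent TGF-β on regulatory T cells and platelets. It had 16, 5 and 43 reads with both agents, 39, 22 and 112 reads with TGF-β1, 0 reads in each of the 3 dexamethasone libraries, and 0, 0 and 1 reads in control. Reads were thus found in every library with TGF-β1 and in 1 library without it. The ratio of read rates was 195 for TGF-β1 against control (95% interval 34.5 to 7730, counting error only; edgeR adjusted p = 1.05e-05). As for LEFTY2, this call is not counted as support, since LRRC32 passed the low-count filter only through the libraries with TGF-β1. Both agents were at least 25.9-fold above dexamethasone, against a floor of 3 reads over the group. Dexamethasone alone against control gives no fold, since both groups were at or under that floor.

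In CPM, LRRC32 stood at 2.59, 0.869 and 2.61 with both agents and at 6.82, 3.40 and 6.27 with TGF-β1, and these groups did not overlap. The log2 fold change was -1.37 (SE 0.37, adjusted p = 0.04). Because LRRC32 passed the filter only through the libraries with TGF-β1, this call is not counted as support either. This call did not hold in 7 of the 12 fits that left out 1 library. The adjusted p was 0.0773, 0.0985 and 0.0665 without replicate 1, 2 or 3 of both agents, and 0.14 and 0.171 without replicate 1 or 3 of TGF-β1. It was 0.0569 and 0.0617 without replicate 1 or 3 of control, and 0.0647 when the 2 groups were fitted on their own. The change kept its direction in these fits, from -1.66 to -1.09.

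**Figure D5:**
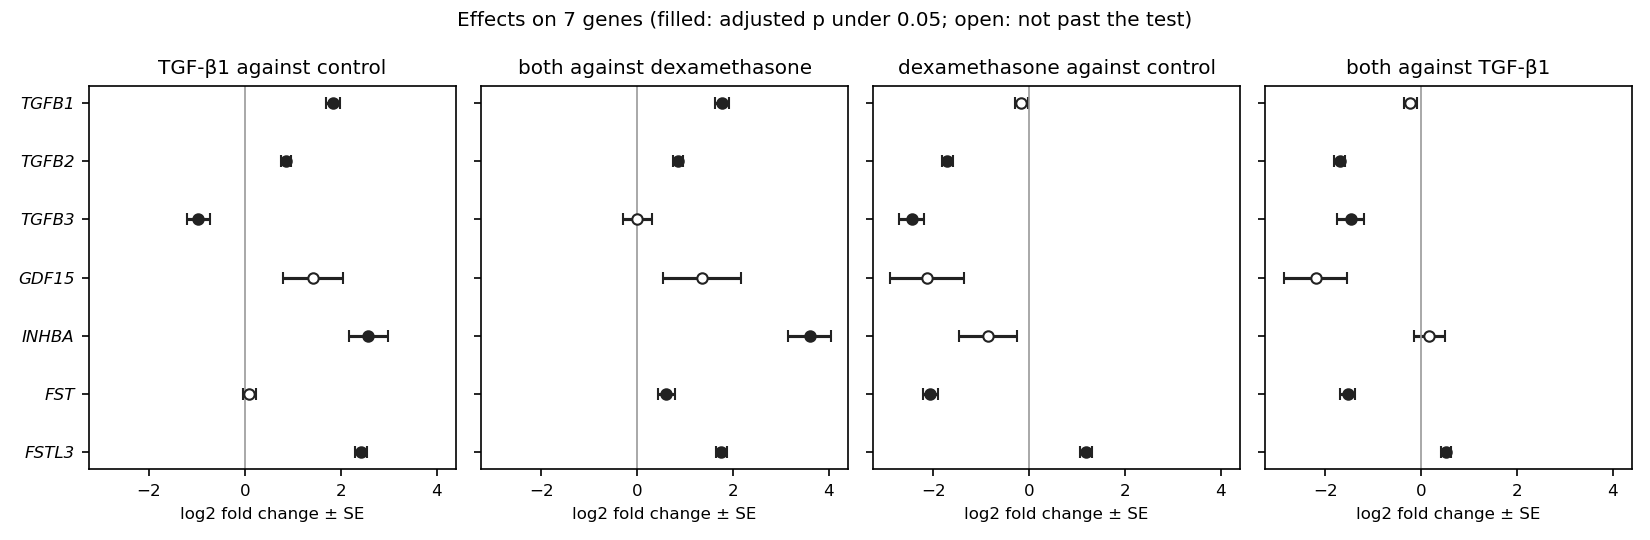
Log2 fold changes with SE of 7 genes in 4 comparisons, with filled points past the test and open points not, from edgeR's quasi-likelihood test without the replicate block. TGFB2 sits at 0.85 with TGF-β1 and at -1.70 with dexamethasone, and FSTL3 lies above 0 in all 4 panels.

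With both agents against dexamethasone, TGFB1, TGFB2, INHBA, LEFTY2, FST, FSTL3 and LRRC32 rose, where 32.3% of all genes were called (15.9% higher). Without INHBA, LEFTY2 and LRRC32, which passed the filter only through the libraries with TGF-β1, 4 of 6 rose. With both agents against control, TGFB1, INHBA, LEFTY2, FSTL3 and LRRC32 rose and TGFB2, TGFB3 and FST fell, against a background of 36.6% (18.5% higher and 18.1% lower). Without INHBA, LEFTY2 and LRRC32, 2 of 6 rose and 3 fell. With the block GDF15 was called higher in both agents against dexamethasone and lower in both agents against control. There 49.9% and 53.1% of all genes were called (26.7% lower in the second). These comparisons share libraries with those above. With both agents against control the log2 fold change was 1.61 for TGFB1 (SE 0.14, adjusted p = 1.67e-06), 2.74 for INHBA (SE 0.41, 0.000124), -2.44 for TGFB3 (SE 0.26, 6.97e-06) and -1.44 for FST (SE 0.16, 7.3e-06). With both agents against dexamethasone FSTL3 had 1.76 (SE 0.12, adjusted p = 1.07e-07). The interaction was past edgeR's test for 0 of the 9 genes, where 0.884% of all genes were called (0.483% higher and 0.401% lower). At an unadjusted p under 0.05 there were 3, namely TGFB3 (0.0234), FST (0.0355) and FSTL3 (0.00106), where 7.13% of all genes were under it. DESeq2 called 1 of the 9, FSTL3, and 1.59% of all genes.

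Ordered by level per kilobase of exon, control cells had TGFB1 first, at 41.4 ± 2.06 CPM per kb, and FSTL3 next, at 30.5 ± 3.16. TGFB2 followed at 12.8 ± 0.716, and then came FST at 7.21 ± 1.10, GDF15 at 6.02 ± 2.71 and TGFB3 at 4.44 ± 0.827. GDF15 did not differ beyond its spread from its neighbours FST and TGFB3. INHBB, INHBA, LEFTY2 and LRRC32 were each at most 0.145 in any control library. In the other groups FSTL3 was first and TGFB1 second. FSTL3 stood at 235 ± 8.38 with both agents, 164 ± 16.6 with TGF-β1 and 69.6 ± 10.6 with dexamethasone. TGFB1 stood at 126 ± 25.8, 147 ± 22.4 and 37.2 ± 3.39 in those groups. With TGF-β1 alone the libraries of these leading genes overlapped, from 145 to 175 for FSTL3 and from 122 to 165 for TGFB1. INHBB was last in both groups with TGF-β1 and LRRC32 was last in the groups without it. Dividing by the longest transcript in place of all exons exchanged neighbours such as GDF15 and FST in control, and left FSTL3 and TGFB1 in the first ranks of each group.

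For each of the 9 tested genes, the 3 genes with the closest profile over the 12 libraries were found, as the smallest root-mean-square difference in centred log2 CPM. Closest to TGFB1 were SPARC, a matrix glycoprotein, at 0.126, then NCS1 and CST6. Among those of TGFB2 were FRMD5 at 0.221 and TRIM62 at 0.257, and closest to TGFB3 were PRAG1 at 0.28, PLK2 and SERTAD4. FSTL3 was nearest to TNS1, an actin-binding protein, at 0.226, then ALDH1L2 and LTBP1, the latent TGF-β binding protein named again below. FST was nearest to C10orf55 at 0.252, LINC01444 and SLC30A1. C10orf55 shares 36.4% of its exon length with PLAU on the other strand, and those reads cannot be told apart. INHBA was nearest to SPHK1 at 0.326, S1PR5 and MRC2, and LEFTY2 to WNT5B at 0.335, COL4A2 and LMCD1. LRRC32 was nearest to SNAI1, a repressor of epithelial genes, at 0.346, then MMP3 and SSC5D. GDF15 had the most distant neighbours, STC1 at 0.548, PLAU and FGF5. These distances are descriptions, and the libraries share treatment and replicate number.

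Among 8 tested of 26 other superfamily ligands, GDF6 and BMP2 rose and BMP4 fell with TGF-β1 against control. GDF6 averaged 286 ± 122 CPM with TGF-β1 and 20.9 ± 0.883 CPM in control (log2 fold change 3.77, SE 0.47, adjusted p = 0.000186). BMP4, a bone morphogenetic protein, averaged 24.7 ± 9.79 CPM with TGF-β1 and 171 ± 47.3 CPM in control (-2.82, SE 0.36, adjusted p = 0.000173). The median of the list was 0.07, and that of all tested genes was -0.009. Dexamethasone lowered GDF11 (-0.48, SE 0.13, adjusted p = 0.025) and BMP4, with a list median of 0.11 and 0.004 for all genes. With the replicate block GDF11 was also higher with TGF-β1 (adjusted p = 0.026) and GDF6 also lower with dexamethasone (0.0118). In this and the following lists, counts with TGF-β1 against control stand beside a background of 16.2% higher and 16.6% lower over all genes, and those with dexamethasone beside 5.54% and 4.90%. The all-gene medians are those just given.

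Of 8 tested of 20 other secreted antagonists and binding proteins, CHRDL2, GREM1, NOG, FSTL1, BMPER and BGN rose with TGF-β1, with a list median of 2.00. BMPER averaged 0.267 ± 0.24 CPM in control and 1.04 ± 0.262 CPM with dexamethasone. It could thus pass the low-count filter only through the libraries with TGF-β1, and its call is not counted as support. GREM1, which binds and blocks bone morphogenetic proteins, averaged 664 ± 129 CPM with TGF-β1 and 124 ± 31.6 CPM in control (2.43, SE 0.35, adjusted p = 0.000432). BGN, a small matrix proteoglycan that binds TGF-β, averaged 1415 ± 338 CPM with TGF-β1 and 188 ± 64.4 CPM in control (2.91, SE 0.40, adjusted p = 0.000313). GREM1 and NOG fell with dexamethasone, both against control and on top of TGF-β1, as FST did, while the list median with dexamethasone was -0.13. With the block TWSG1 was also lower with TGF-β1 (adjusted p = 0.0103), BMPER higher with dexamethasone (0.0192) and CHRDL2 lower with both agents against TGF-β1 (0.0188).

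Of 14 tested of 15 genes for latency and activation, 10 rose with TGF-β1 against control and 3 fell, with a median of 1.20. LTBP2 rose by 3.83 on the log2 scale (SE 0.27, adjusted p = 1.13e-06) and LTBP1, which tethers latent TGF-β to matrix, rose by 2.84 (SE 0.25, adjusted p = 1.54e-06). NRROS, a docking protein for latent TGF-β related to LRRC32, averaged 0.46 ± 0.439 CPM with TGF-β1 and 2.14 ± 0.422 CPM in control (-2.19, SE 0.72, adjusted p = 0.0324). NRROS was low in every group. Whether the low-count filter kept it only through the control libraries was not tested, so its call is not counted as support. PCSK6, a proprotein convertase, had -2.45 (SE 0.34, adjusted p = 8.38e-05). With dexamethasone LTBP1 and ITGB1 rose, and FURIN, ITGB6 and ITGB8 fell. With the block LTBP3 was also higher with TGF-β1 (adjusted p = 0.0349), and FBN1 (0.0124) and BMP1 (0.00202) were also higher with dexamethasone.

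Of 10 tested of 16 receptors and coreceptors, ACVR2A, ACVR1, BMPR2 and ENG rose and TGFBR3 and TGFBR2 fell with TGF-β1, with a median of 0.22. TGFBR3, the coreceptor known for presenting TGF-β2, averaged 10.2 ± 2.16 CPM with TGF-β1 and 41.8 ± 5.69 CPM in control (-2.07, SE 0.18, adjusted p = 8.79e-07). TGFBR3 rose with dexamethasone, both against control and on top of TGF-β1, where TGFB2 fell. TGFBR2 had -1.02 with TGF-β1 (SE 0.17, adjusted p = 0.00061). With the block TGFBR1 was also higher with TGF-β1 (adjusted p = 3.79e-05), and with dexamethasone TGFBR2 was also higher (0.00389) and BMPR2 lower (0.0394). Of 16 tested SMAD and feedback genes, 11 rose and SMAD3 fell with TGF-β1, with a median of 0.92, and PMEPA1 rose by 4.80 on the log2 scale (SE 0.27, adjusted p = 2.01e-07). With the block 12 were higher and 2 lower. Of 14 ATF4 and p53 target genes, a list set beside GDF15 because both factors are known to induce it, 6 rose with TGF-β1, with a median of 0.36, and with the block 7 were higher and 1 lower. With dexamethasone SESN2, GADD45A, CHAC1 and SESN1 rose, with a median of -0.02, where GDF15 fell with the block.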

How the data were processed

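RNA was sequenced from polyadenylated RNA of 12 libraries (500 ng of RNA each, integrity number above 8), per the labels' protocols. The authors deposited unnormalised read counts for each gene, made with featureCounts on hg38, per the submitters' processing notes. For versions, aligner, annotation release, strand setting and vehicle: not given in the sources used here, and the kit is taken as non-directional from the product name in the labels' protocols. Of 18 count columns the labels match 12, and 6 unlabelled columns were not used. Of 28395 Entrez identifiers, 27745 matched the RefSeq gene table of GRCh38.p14, with 99.943% of counts.

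Genes were kept by filterByExpr (minimum count 10), which left 13469. All 12 libraries were fitted with edgeR 4.0.16 (limma 3.58.1, R 4.3.3): TMM, 1 mean per group, robust quasi-likelihood test, Benjamini-Hochberg adjusted p under 0.05. SE was derived from the log2 fold change and F. CPM used TMM-scaled totals, levels per kilobase the merged exons of GENCODE v29, and profiles log2 CPM with a prior count of 2. Ratios of reads have exact 95% intervals, and intervals and floors of 3 reads cover counting error only: without molecular identifiers, reads are not separate molecules. The test was checked on simulated data with independent libraries, the same spread for all genes and changes in the TGF-β1 group only. Those data held no deviation shared by replicate number, so the check does not cover it. Figures used Python 3.11.15, pandas 2.3.3 and matplotlib 3.10.9. Alternatives were other scalings, no filter, DESeq2 1.42.0, the replicate block, 2-group fits and leaving out libraries.

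Within each group, replicates differed beyond sampling noise, with 5.81 to 17.8 as chi-square over its degrees of freedom. P-values measure the spread between these libraries, which the labels call biological triplicates. Libraries with the same number correlated at 0.25 to 0.541 after removal of the group mean, in 18 of 18 pairs above the limit of 0.1, so the numbers pair the samples. The common biological variation (edgeR's BCV) was 0.122 in the fit without the block and 0.0577 in the fit with it. The members, the pathway lists and the tests were chosen with earlier results of these data known. All 10 genes are named, the 3 nearest profiles are named for each tested gene with a mean log2 CPM range of at least 1 between groups (1 such gene is not reported here), and up to 4 of each list with the largest change past the test were eligible for naming.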

Additional observations from a re-analysis of the deposited data

Results flagged for a closer look

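The dexamethasone change of TGFB3 with TGF-β1 minus that without it was 1.04 on the log2 scale in the fit with the replicate block (SE 0.27, adjusted p = 0.0232). It stands out because the effect of 1 agent differed between cells with and without the other. TGFB3 averaged 4.02 ± 0.433 CPM with both agents and 11.4 ± 4.67 CPM with TGF-β1, and 4.07 ± 0.716 CPM with dexamethasone and 21.8 ± 4.06 CPM in control (SD, n = 3 each). Without the block the value was 0.98 and not past the test (adjusted p = 0.493). Leaving out 1 library at a time in that fit gave 0.72 to 1.35 (adjusted p 0.0532 to 0.857).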

How the results depend on the processing

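With the replicate block, genes past the test numbered 6741 for TGF-β1 against control, 2996 for dexamethasone against control, 2353 for both agents against TGF-β1, 6727 for both agents against dexamethasone and 644 for the interaction, against 4416, 1406, 1092, 4352 and 119 without it; DESeq2 called 214 for the interaction. Of the 9 tested genes, the interaction was called for FSTL3 without the low-count filter (-0.67) and with DESeq2 (-0.65). With the block it was called for another gene in the other direction, TGFB3 (1.04). Over all genes 145 were called without the filter, 214 (1.59%) with DESeq2 and 644 (4.78%) with the block. The block also added GDF15 in the 5 pairwise comparisons and changed no other call of the 10 genes; calls of pathway genes that it changed are given with their lists or are in comparisons not described. Leaving out 1 library at a time, the interaction was called for 57 to 120 of all genes and for 0 to 1 of the 9.

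Directions that turned were those of small, uncalled changes. For TGFB2 the interaction was -0.0035 without the filter. TGFB3 in both agents against dexamethasone was -0.20 with scaling by library size alone and -0.06 without replicate 2 of all groups. LEFTY2 in both agents against TGF-β1 was 0.49 with LEFTY1 reads added, and FST in TGF-β1 against control was -0.12 with scaling by library size alone. Leaving out 1 library, the interaction ran from -0.20 to 0.09 for TGFB1, from -0.12 to 0.10 for TGFB2 and from -0.50 to 0.29 for GDF15. TGFB3 in both agents against dexamethasone ran from -0.14 to 0.15 and FST in TGF-β1 against control from -0.01 to 0.19. In both agents against TGF-β1, INHBA ran from -0.01 to 0.36 and LEFTY2 from -0.68 to 0.06. The cause was not tested. In TGF-β1 against control the median gene stood at -0.217 when only library size was used for scaling, and at -0.009 with TMM, and no called direction of the 10 genes turned with it. The same scaling gave 1325 genes higher and 4472 lower in both agents against dexamethasone, against 2145 and 2207, and 1416 and 5342 in both agents against control, against 2491 and 2434. With only the 2 groups compared in the fit, calls among the 10 genes numbered 6 for TGF-β1 against control, against 7 in the main fit. They numbered 5 for both agents against dexamethasone, against 7, and 6 for both agents against control, against 8. For both agents against TGF-β1 they numbered 4, against 5. Dexamethasone against control went the other way, with 5 against 4. Calls over all genes were also fewer in the comparisons that lost calls, and slightly more numerous in dexamethasone against control. In the 2-group fits, INHBA, LEFTY2 and LRRC32 gave no value in dexamethasone against control, since the filter removed them. The same held for 5 comparisons of LEFTY2 and LRRC32 between a group with TGF-β1 and a group without it. Depth limits INHBB, and INHBA without TGF-β1.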
